A study of Danio rerio with 6 samples.

Results

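The embryonic globin genes were followed in 6 bulk RNA-sequencing libraries of endothelial cells (ECs) sorted from zebrafish tails at 36 hours post fertilisation (hpf). Members were the rows of the deposited table whose symbol began with hba or hbb, followed by a, e or b and a digit. This rule found 5 of 10232 genes, the alpha-type genes hbae1 and hbae3 and the beta-type genes hbbe1.1, hbbe2 and hbbe3. All 5 had reads in all 6 libraries. A further 2 rows are globin genes listed under other symbols in this table: RefSeq gives si:ch211-5k11.12 as a synonym of hbbe1.3 and zgc:163057 as a synonym of hbae4. Their values are given beside those of the 5 members and are left out of the sums unless stated.

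The 3 DN-bmal1a libraries came from embryos that carried flk1:GFP, flk1:GAL4 and also UAS:DN-bmal1a, and the 3 control libraries from embryos with flk1:GFP and UAS:DN-bmal1a alone, so that both groups carried the reporter and the UAS transgene and differed in the GAL4 driver. The flk1 (kdrl) promoter, active in endothelium, drove both the GFP used for sorting and the GAL4 that switches on the dominant-negative form of the clock factor Bmal1a. Each library was made from about 5000 GFP-positive cells of the caudal haematopoietic tissue (CHT) region of pooled embryos. The question for the globin genes was whether their level in this sorted fraction differed between the genotypes.

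Haemoglobin carries oxygen as a tetramer of alpha-type and beta-type chains, each holding a heme group. Zebrafish keep alpha-type and beta-type genes side by side in clusters, and embryos use embryonic genes before the adult genes of the family take over. At this stage the embryonic genes are known as products of primitive erythrocytes, which circulate through the tail vessels from which the ECs were sorted. In RefSeq, hbae1, hbae3, hbbe1.1 and hbbe1.3 lie in 1 cluster, which also holds adult globin genes. hbae4, hbbe2 and hbbe3 lie in another. The symbol hbae1 is an older name of hbae1.1 there. The clusters hold further, closely similar copies that were not analysed here, and how reads shared between copies were assigned is not stated, so the split between neighbouring copies is uncertain.

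Whole reads could be recovered from the deposited values, and numbered between 26161915 and 55004237 per library. Values are given in normalised reads per 1000000 (CPM), of which 1 read is worth between 0.0178 and 0.0367 CPM. The 5 globin genes had between 328 and 95056 reads each in a library. With reads taken as independent, counting error was at most 5.52% of a value. The RNA was amplified before sequencing, so the real error may be larger. The shallowest library, DN-bmal1a replicate 2, also had the most genes without reads, 1760. DN-bmal1a replicates 1 and 3 had 722 and 865, against 696, 34 and 422 in control replicates 1, 2 and 3. Every DN-bmal1a library thus had more genes without reads than any control. Nothing in the labels says how the pools of embryos were formed, and the limma p-values measure the spread between these libraries. Of the endothelial markers listed, 11 of 12 were measured, all with reads in every library, among them kdrl, cdh5 and etv2. Their presence does not measure the purity of the sort, since no unsorted library is at hand for comparison. Myeloid and keratinocyte markers had reads as well, and their levels are given below.

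All 5 globin genes were higher on average in DN-bmal1a than in control ECs, by 1.76 to 3.77 times. Together they took 0.391%, 0.611% and 0.582% of the reads in DN-bmal1a replicates 1, 2 and 3, against 0.296%, 0.0893% and 0.19% in control replicates 1, 2 and 3. Their summed level was 5155 ± 1082 CPM in DN-bmal1a and 1974 ± 1090 CPM in controls (SD, n = 3 each), 2.61 times higher, and the groups did not overlap. In bulk libraries, more cells of a type and more RNA per cell cannot be told apart.

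hbae1, an alpha-type chain gene, had 1295, 1711 and 1689 CPM in DN-bmal1a replicates 1, 2 and 3, against 983, 324 and 617 CPM in control replicates 1, 2 and 3. The groups did not overlap, and the lowest DN-bmal1a value was 1.32 times the highest control. On log2(CPM + 1), its log2 fold change was 1.42 ± 0.34 (standard error), with a limma adjusted p = 0.234. hbae3, the other alpha-type gene, had 943, 1407 and 1474 CPM in DN-bmal1a, against 1047, 263 and 503 CPM in controls. Here the groups overlapped, since DN-bmal1a replicate 1 lay below control replicate 1, and 8 of the 9 pairs of a DN-bmal1a and a control library had the higher value in DN-bmal1a. The log2 fold change of hbae3 was 1.27 ± 0.42 (limma adjusted p = 0.334).

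hbbe1.1, a beta-type chain gene, showed the largest log2 fold change of the 5. It had 1042, 1714 and 1675 CPM in DN-bmal1a, against 503, 163 and 510 CPM in controls. All DN-bmal1a libraries were above all controls, and the lowest of them was 2.05 times the highest control. Its log2 fold change was 2.05 ± 0.41 (limma adjusted p = 0.185), the 6th lowest p-value among the 4287 genes with a positive fold change. hbbe3, a beta-type gene of the other cluster, had 585, 963 and 824 CPM in DN-bmal1a, against 492, 132 and 304 CPM in controls. The groups did not overlap either, and the log2 fold change was 1.51 ± 0.41 (limma adjusted p = 0.268).

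hbbe2, the neighbour of hbbe3, had 45.4, 69.8 and 27.8 CPM in DN-bmal1a, against 46.1, 8.78 and 26.5 CPM in controls. Its groups overlapped, DN-bmal1a replicate 3 being close to control replicate 3. The log2 fold change of hbbe2 was 0.97 ± 0.6 (limma adjusted p = 0.582), and its difference was not distinguishable from the spread between libraries.

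**Figure D1:**
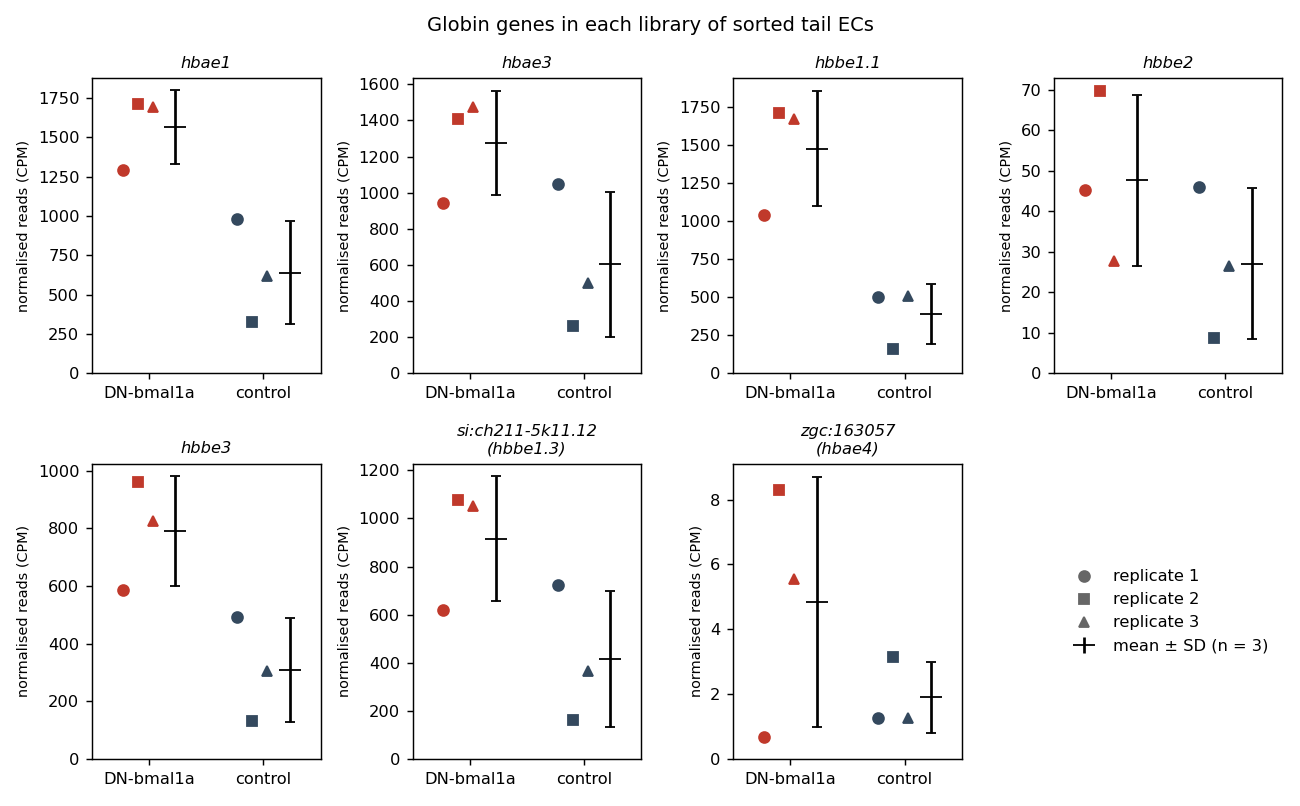
Level of each globin gene (CPM, linear axes starting at 0) in the 3 DN-bmal1a libraries (red, left) and the 3 control libraries (dark blue, right), each point being 1 library, with the mean ± SD beside each group. In hbae1, hbbe1.1 and hbbe3 every red point lies above every dark blue one, and in all 5 members control replicate 2 is the lowest of the 6 libraries.

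Both globin genes listed under other symbols had a higher mean in DN-bmal1a, with overlapping groups. si:ch211-5k11.12 (hbbe1.3) had 619, 1077 and 1054 CPM in DN-bmal1a, against 722, 163 and 366 CPM in controls, and the log2 fold change was 1.34 ± 0.46 (limma adjusted p = 0.354). This pattern over the libraries was close to that of hbae3, the same DN-bmal1a library lying below the same control. zgc:163057 (hbae4) had few reads, with 0.672, 8.29 and 5.56 CPM in DN-bmal1a, from 29, 226 and 313 reads, against 1.26, 3.16 and 1.27 CPM in controls, from 52, 118 and 64 reads. Its log2 fold change of 0.75 was smaller than its standard error of 0.82.

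No globin gene was called by limma at an adjusted p under 0.05 with a fold change of at least 2. Over the whole table, 1 gene (0.00977%) was called and 1148 had an unadjusted p under 0.05. At that unadjusted threshold, 4 of the 5 members were higher in DN-bmal1a, the exception being hbbe2, where 3.1% of all genes were. In 3 of the 5 the groups did not overlap, as in 7.0% of all genes in that direction, and a two-sided exact permutation test gave the smallest p that 3 libraries against 3 allow, 0.1, for these. It gave exact p = 0.2 for hbae3 and exact p = 0.3 for hbbe2. The members had a median log2 fold change of 1.42, against a median of -0.13 over all genes.

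The call differed between tests. On the recovered reads, edgeR's quasi-likelihood test called no member and no other gene higher in DN-bmal1a (0% of genes), with 4 members at an unadjusted p under 0.05. edgeR's exact test called hbbe1.1 (adjusted p = 0.0106), where it called 0.0684% of genes higher. DESeq2 called hbae1, hbbe1.1 and hbbe3, with adjusted p values of 0.0113, 0.000125 and 0.0374, and 0.19% of genes in that direction. edgeR's likelihood ratio test with a trended dispersion called hbae1, hbae3, hbbe1.1 and hbbe3, with 0.108% of genes called higher. Its adjusted p values were 0.00136 for hbae1, 0.0211 for hbae3, 2.62e-08 for hbbe1.1 and 0.00107 for hbbe3. This test also called si:ch211-5k11.12 (hbbe1.3; adjusted p = 0.0131), which the other tests did not. Its trended dispersion is taken from genes of similar level, so its p-values do not measure each gene's own spread between libraries. The paper's own edgeR list of 95 differentially expressed genes holds these 4 members and si:ch211-5k11.12, with the same adjusted p values. hbbe2 was called by none of the tests, and its log2 fold change on the reads was between 0.81 and 0.83.

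Control replicate 2 was the lowest of the 6 libraries in all 5 members, and weighed on the size of every difference. Without it, the log2 fold change was 0.99 for hbae1, 0.78 for hbae3, 1.51 for hbbe1.1, 0.34 for hbbe2 and 1.0 for hbbe3. Without control replicate 1, the highest control in hbae1, hbae3, hbbe2 and hbbe3, these were 1.79, 1.78, 2.32, 1.48 and 1.94. The direction was the same in all 18 alternative fits of each of the 7 globin genes. The members varied more among the controls, whose highest value was 3.03 to 5.25 times the lowest, than among the DN-bmal1a libraries, where it was 1.32 to 2.51 times. This difference in spread was not tested.

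**Figure D2:**
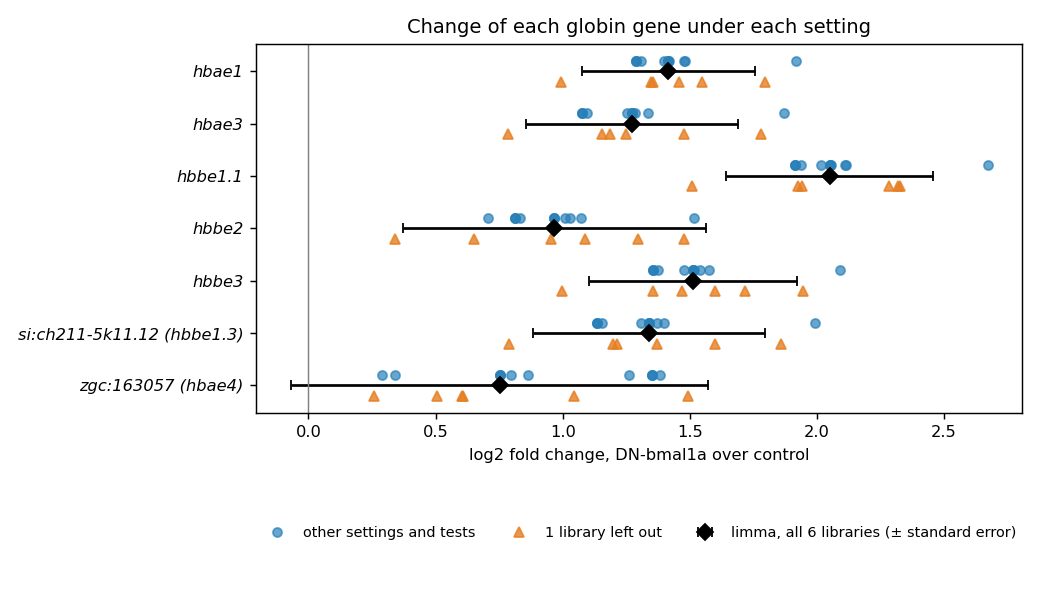
Log2 fold change of DN-bmal1a over control for each globin gene: limma on all 6 libraries with its standard error (black), 12 other settings and tests (blue), and the 6 fits with 1 library left out (orange). All points lie above 0, hbbe1.1 lies furthest to the right in the fit on all libraries (2.05), and the lowest orange point of each of the 5 members is the fit without control replicate 2.

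The alpha-type genes summed to 2237, 3118 and 3163 CPM in DN-bmal1a, against 2029, 587 and 1119 CPM in controls, 2.28 times higher on average. The beta-type genes summed to 1673, 2747 and 2528 CPM in DN-bmal1a, against 1041, 304 and 840 CPM in controls, 3.18 times higher on average. Neither sum overlapped between the groups. Alpha-type genes made up 57.2%, 53.2% and 55.6% of the globin reads in DN-bmal1a, against 66.1%, 65.9% and 57.1% in controls. The alpha-type share averaged 55.3 ± 2.04% in DN-bmal1a and 63.0 ± 5.12% in controls (SD, n = 3 each), a difference of -7.71 percentage points. The groups overlapped by a narrow margin, DN-bmal1a replicate 1 lying just above control replicate 3. These are shares of reads and not of transcripts, since no transcript lengths were used. With hbae4 and hbbe1.3 included, the shares were 49.4%, 45.0% and 46.9% in DN-bmal1a, against 53.5%, 55.8% and 48.2% in controls, and they overlapped as well.

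hbbe1.1 took a larger part of the globin reads in DN-bmal1a. Its share of the 5 genes was 26.7%, 29.2% and 29.4% in DN-bmal1a, against 16.4%, 18.3% and 26.0% in controls, without overlap. The ratio of hbbe1.1 to hbbe1.3 of the same cluster was 1.69, 1.59 and 1.59 in DN-bmal1a, against 0.697, 0.998 and 1.39 in controls. The DN-bmal1a libraries were thus nearly alike in this ratio while the controls spread over a range below them. The share of hbae3 was 24.1%, 24.0% and 25.9% in DN-bmal1a, against 34.1%, 29.5% and 25.6% in controls, with overlap. hbbe3 had nearly the same share in both groups, from 14.5% to 16.4% in DN-bmal1a and from 14.8% to 16.0% in controls. hbbe2 stayed between 0.489% and 1.5% of the globin reads. Since hbbe1.1 had the largest log2 fold change of the 5 genes, a higher average share of it was largely given. Its ratio to hbbe1.3 also rests on how reads were split between neighbouring copies, which is uncertain. These shares and the ratio were looked at after the values were seen and were not tested.

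**Figure D3:**
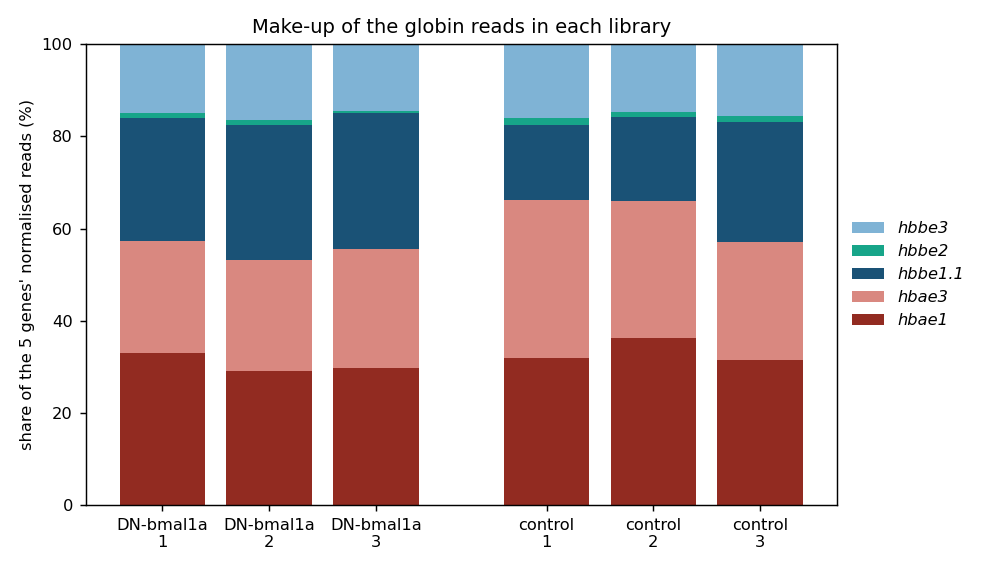
Share of each of the 5 globin genes in their summed normalised reads (%, stacked to 100) in the 3 DN-bmal1a libraries (left) and the 3 control libraries (right), alpha-type genes in red at the bottom and beta-type genes in blue and green above. The hbbe1.1 segment is 26.7% to 29.4% in DN-bmal1a and 16.4% to 26.0% in controls, and hbbe3 is similar in all 6 libraries.

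The members varied together over the 6 libraries. Pearson's r of log2(CPM + 1) lay between 0.923 and 0.995 for the 6 pairs among hbae1, hbae3, hbbe1.1 and hbbe3, and between 0.781 and 0.87 for the 4 pairs with hbbe2. After each group's mean was taken out, r was between 0.86 and 0.991 and between 0.753 and 0.861. These r pool both genotypes, and the members varied more among the controls. Within DN-bmal1a, hbbe2 did not follow the others, being lowest in replicate 3 (27.8 CPM), where hbae3 was highest (1474 CPM). These 6 points share libraries and depth, and the r are descriptions. Among 6606 other genes with a mean of at least 10 CPM, the 5 closest to the mean of the members were cahz (r = 0.983), si:ch211-5k11.12 (0.982), si:dkey-159a18.7 (0.982), cirbpb (0.974) and pik3ip1 (0.971). The best r among so many genes over 6 libraries would be high in any case, and of these only si:ch211-5k11.12 is a globin gene. cahz encodes a carbonic anhydrase of red cells.

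cahz was taken up as the gene closest to the globin genes over these same libraries. A level that follows theirs, and a similar ratio to them in both genotypes, were thus largely given by this choice. cahz had 49.3, 66.0 and 77.8 CPM in DN-bmal1a, against 41.3, 8.91 and 28.6 CPM in controls (log2 fold change 1.47 ± 0.52, limma adjusted p = 0.361), and the groups did not overlap. Per unit of cahz, the sum of the 5 globin genes was 79.4, 88.9 and 73.2 in DN-bmal1a, against 74.4, 99.9 and 68.5 in controls, so that the ratio overlapped between the genotypes. slc4a1a, the anion exchanger of the red cell membrane, had 116, 153 and 222 CPM in DN-bmal1a, against 94.9, 45.2 and 111 CPM in controls. alas2, the erythroid enzyme that opens heme synthesis, had 67.6, 34.2 and 65.9 CPM in DN-bmal1a, against 60.3, 18.7 and 44.1 CPM in controls, and its groups overlapped. Relative to alas2, the globin sum was 57.8, 171 and 86.3 in DN-bmal1a, against 50.9, 47.7 and 44.4 in controls, without overlap. Relative to slc4a1a, it was 33.7, 38.3 and 25.6 in DN-bmal1a, against 32.3, 19.7 and 17.7 in controls, with overlap. Relative to rhag, also a red cell membrane gene, it was 116, 264 and 84.7 in DN-bmal1a, against 202, 62.0 and 163 in controls, with overlap. The ratio thus overlapped between the genotypes for cahz, slc4a1a and rhag, and not for alas2.

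Of the 53 genes on the 5 erythroid lists, 44 were measured, and limma, the 3 edgeR tests and DESeq2 called none of them. At an unadjusted p under 0.05, 7 were higher and 2 lower in DN-bmal1a, where 3.1% of all genes were higher and 8.12% lower. The median log2 fold change of the 44 was 0.19 in the limma fit, with 26 above 0 and 18 below. It was 0.44 in the edgeR tests, with 30 above and 14 below, and 0.46 in DESeq2, with 32 above and 12 below. In heme synthesis, 9 of 10 enzymes had a positive log2 fold change, with a median of 0.91, and alad, urod and cpox passed the unadjusted threshold with log2 fold changes of 1.14, 0.94 and 1.57. The red cell membrane list was mixed, with 2 of its 7 measured genes above 0 and 5 below, and a median of -0.40. Under quantile normalization and in the tests on the reads, 3 were above 0 and 4 below, with medians from -0.29 to -0.05. In the limma fit, slc4a1a and rhag (1.01 and 1.36) and, on the lower side, the water channel gene aqp1a.1 (-0.99) passed the unadjusted threshold. The other 4, epb41b (-0.34), sptb (-1.42), ank1a (-0.48) and tmod4 (-0.40), did not. aqp1a.1 had 2454, 1521 and 1862 CPM in DN-bmal1a, against 3261, 4344 and 3832 CPM in controls. No other gene of this list came near that level. ank1a had 0, 0 and 224 reads in DN-bmal1a, against 4, 75 and 155 in controls. epb41b and sptb had 61 and 4 reads in DN-bmal1a replicate 2, against 3757 and 1831 in replicate 1 and 3211 and 1414 in replicate 3. The mean of epb41b was 48.8 CPM in DN-bmal1a and 32.1 CPM in controls. Iron and heme transport had 5 of 9 genes above 0 and a median of 0.0045, and none passed. The other red cell genes had 5 of 6 above 0 and a median of 0.21, and cahz passed. Of 12 erythroid transcription factors, 5 were above 0 and 7 below, with a median of -0.12. This median was 0.08 under quantile normalization, 0.21 in the edgeR tests and 0.23 in DESeq2. Of the 12, gfi1aa (1.58, with overlapping groups) and gata1a passed the unadjusted threshold in the limma fit, in opposite directions. gata1a, the main activator of erythroid genes, had 0, 0 and 1.83 CPM in DN-bmal1a, against 4.13, 5.84 and 8.89 CPM in controls, with no overlap. slc25a37, the mitochondrial iron importer of erythroid cells, had 10.4, 0 and 0 CPM in DN-bmal1a, against 4.42, 7.17 and 1.81 CPM in controls, with overlap. The zeros of gata1a and slc25a37 fell in libraries that had more genes without reads than any control. klf1, which in mammals activates the adult beta-globin gene, had 4.47, 11.7 and 10.6 CPM in DN-bmal1a, against 9.54, 4.1 and 0.756 CPM in controls, with overlap. Of the oxygen-binding globins outside the haemoglobin family, 3 of 5 were measured (mb, cygb1 and xgb), all at 17.2 CPM or less, and none had an unadjusted p under 0.05.

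The endothelial markers were lower on average in DN-bmal1a. All 11 measured had a negative log2 fold change, with a median of -0.95 (fli1a, at -0.05, turned positive when libraries were rescaled to equal sums). Of the 11, 9 had an unadjusted p under 0.05, where 8.12% of all genes were lower at that threshold, and in 7 the groups did not overlap, where 10.7% of all genes were lower without overlap. limma and edgeR's quasi-likelihood test called none of the 11. edgeR's exact test called flt4 and stab2 lower, its likelihood ratio test flt4, stab1 and stab2, and DESeq2 flt1, flt4 and stab2. Over the whole table these 3 tests called 71, 84 and 168 genes lower. Their sum was 5888, 4084 and 4676 CPM in DN-bmal1a replicates 1, 2 and 3, against 7743, 9958 and 9928 CPM in control replicates 1, 2 and 3. Over the 6 libraries, the order of the endothelial sum was the reverse of that of the globin sum. aqp1a.1, from the red cell membrane list, had the same order as the endothelial sum. kdrl, whose promoter drove the sort, had 620, 605 and 478 CPM in DN-bmal1a, against 911, 1116 and 1289 CPM in controls. The 7 measured myeloid markers summed to between 6297 and 9465 CPM in DN-bmal1a and between 6477 and 11075 CPM in controls, with overlap. Most of this sum was lyz, with a mean of 5070 CPM in DN-bmal1a and 5724 CPM in controls. Of the 7, 2 had a positive log2 fold change and 5 a negative one, and only mpx passed the unadjusted threshold. mpx had 570, 890 and 491 CPM in DN-bmal1a, against 1818, 1266 and 818 CPM in controls (log2 fold change -0.97 ± 0.30, limma adjusted p = 0.314), with overlap. Of 6 symbols listed as markers of haematopoietic stem and progenitor cells (HSPCs), 3 were measured, and cmyb is another name of myb. All 3 had a positive log2 fold change, 0.48 for myb, 0.32 for gata2b and 1.58 for gfi1aa, which is also on the list of erythroid factors. They summed to 898, 1294 and 1306 CPM in DN-bmal1a, against 1140, 917 and 483 CPM in controls, with overlap. The 8 keratinocyte markers summed to between 2601 and 3273 CPM in DN-bmal1a and between 3734 and 3777 CPM in controls, without overlap. Most of this sum was krt8, with a mean of 2262 CPM in DN-bmal1a and 2918 CPM in controls. Each of the 8 overlapped between the groups when taken alone, and none passed the unadjusted threshold. The 8 muscle markers summed to between 302 and 1424 CPM in DN-bmal1a and between 501 and 1637 CPM in controls, with overlap. Among them, smyhc1 was called higher by the likelihood ratio test, with 5.12, 0.733 and 132 CPM in DN-bmal1a replicates 1, 2 and 3. The 3 measured thrombocyte markers summed to between 20.1 and 61.4 CPM in DN-bmal1a and between 42.9 and 63.8 CPM in controls, with overlap. The 5 pigment and neural crest markers summed to 0 to 145 CPM in DN-bmal1a and 16.1 to 35.04 CPM in controls, with overlap. Of these 5, only dct passed the unadjusted threshold (log2 fold change -3.16 ± 0.79, limma adjusted p = 0.247), without overlap. dct had 0 reads in every DN-bmal1a library, against 749, 411 and 108 in control replicates 1, 2 and 3. edgeR's exact and likelihood ratio tests and DESeq2 called dct lower. The likelihood ratio test called gch2 higher, which had 125 CPM in DN-bmal1a replicate 3. The part of all these marker lists, and of the genes without reads in the DN-bmal1a libraries, in the globin difference was not tested. A change of globin RNA per cell and a different share of erythroid RNA in the sorted fraction cannot be told apart.

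**Figure D4:**
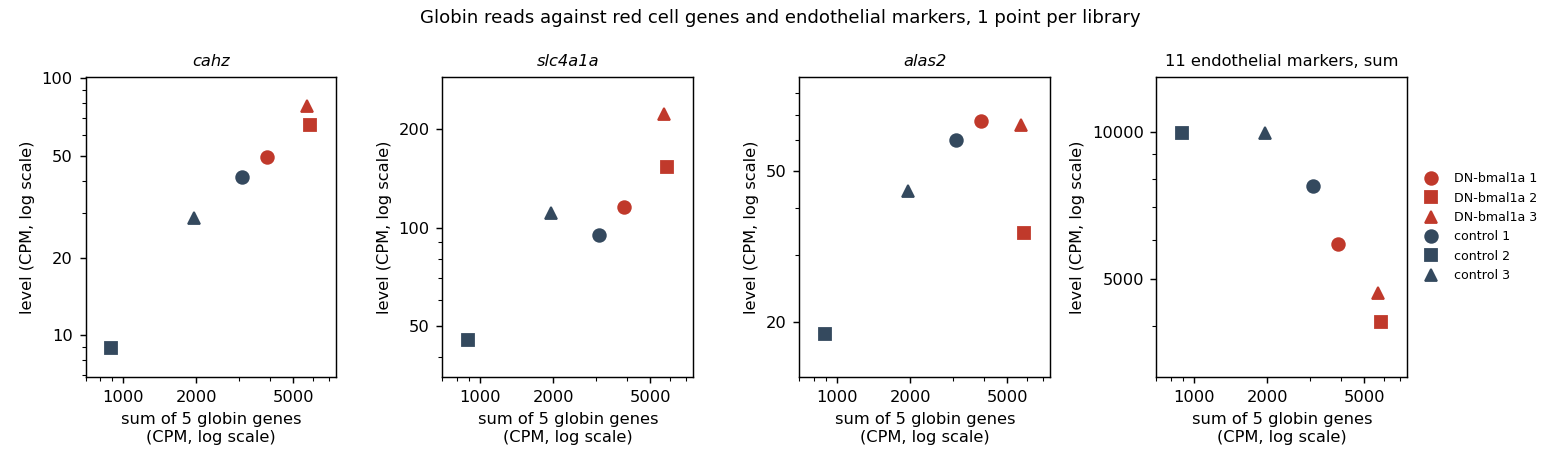
Level of cahz, slc4a1a, alas2 and the sum of 11 endothelial markers (vertical, CPM, log scale) against the sum of the 5 globin genes (horizontal, CPM, log scale), 1 point per library, DN-bmal1a in red and control in dark blue. cahz is highest in DN-bmal1a replicate 3 (77.8 CPM) and lowest in control replicate 2 (8.91 CPM), while the endothelial sum is 4084 CPM in DN-bmal1a replicate 2, which has the highest globin sum, and 9958 CPM in control replicate 2, which has the lowest.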

How the data were processed

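Per the labels and the paper, RNA of sorted ECs was amplified (SMARTer Ultra Low) and prepared with Nextera XT. The submitters' processing notes name STAR 2.7.0f, HTSeq 0.9.1, edgeR 3.38.4 and the build GRCz11, whereas the paper's methods name GRCz10, so the build is uncertain and no coordinates are given. The authors deposited 1 table of normalised signal, in reads per 1000000 of an effective library size. Each library has a fixed step worth 1 read, and 100% of the non-zero values came out as whole reads (tolerance 0.1 read). The low-count filter is not given in the sources used here.

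The main test was limma 3.58.1 (lmFit, eBayes with a trend) in R 4.3.3 on log2(CPM + 1) over all 10232 genes, and a gene was called where its Benjamini-Hochberg adjusted p was under 0.05 and its fold change 2 or more in either direction. The added 1 understates changes of low genes. The values had been taken as CPM when the test was chosen, and their columns do not sum to 1000000. edgeR 4.0.16 and DESeq2 1.42.0 were run on the recovered reads. Tests were checked on simulated reads, with changes larger than those of the globin genes and the same dispersion for every gene. Such reads cannot tell which of the tests that differ here is right. The members, gene lists and tests were chosen with earlier results of these data known. The rule for named genes took all globin genes, list genes among the first 3 measured or with an unadjusted p under 0.05, and the 5 genes most like the members, and list genes are printed where a result turns on them. The shares within the globin reads, the ratios to cahz, slc4a1a, alas2 and rhag and the cluster neighbours were added after the values were seen. Globin names were taken from RefSeq (GRCz12tu) for names and gene order only.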

Additional observations from a re-analysis of the deposited data

How the results depend on the processing

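The number of globin genes called, 0 of 5 in the limma fit, was 0 in all other limma settings (pseudocounts of 0.1 and 10, a filter, 2 scalings, no trend, array weights, each library left out) and in edgeR's quasi-likelihood fit. The likelihood ratio test called 4, DESeq2 3 and edgeR's exact test 1. The number of genes called over the table, 1, was 7 without a trend, 22 with array weights, 0 with edgeR's quasi-likelihood fit (where 804 had an unadjusted p under 0.05), 78 with the exact test, 95 with the likelihood ratio test and 187 with DESeq2, and between 0 and 1 with 1 library left out. The cause was not tested. With the replicate number as a block (replicate block), 1 gene and 0 globin genes were called, and none of the 6 libraries correlated best with its own number (r of same-numbered libraries from -0.074 to 0.0025). Of the alternative fits of the 7 globin genes, 117 left the gene uncalled, as in the limma fit, and 9 called it. These counts concern the call and not the size of the log2 fold change, none of which changed sign. The summed alpha-type and beta-type levels and the alpha-type share moved by less than the spread between replicates under the alternatives run. Levels per coding length were not run, since no lengths were used. Quantile normalization put the median over all genes of the log2 fold change at 0.038, against -0.13 as deposited, and 43.6% against 27.6% of the genes with an unadjusted p under 0.05 were higher. The globin genes were higher under each scaling.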

Other observations

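The genes that flank the 2 globin clusters in RefSeq, of which the nearest 3 in the table on each side were taken, mostly overlapped between the groups. nprl3, next to the cluster of hbae1, hbae3 and hbbe1.1, had 18.9, 10.7 and 18.3 CPM in DN-bmal1a, against 0.0483, 10.98 and 7.75 CPM in controls (log2 fold change 1.79 ± 0.96, limma adjusted p = 0.525), with overlap. kank2, on its other side, had 59.1, 0.697 and 17.7 CPM in DN-bmal1a, against 25.4, 26.4 and 20.8 CPM in controls, and also overlapped. aqp8a.1, a water channel gene close to hbbe2 in the other cluster, went the other way. It had 799, 494 and 508 CPM in DN-bmal1a, against 1232, 1466 and 949 CPM in controls, and its log2 fold change was -1.03 ± 0.23 (limma adjusted p = 0.223), without overlap. The paper's own edgeR list of differentially expressed genes holds aqp8a.1 as lower. arhgap17a, further from the same cluster, was higher without overlap by a log2 fold change of 0.34 ± 0.63. These genes were picked by their place after the values of the globin genes were known.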
